A study of Mus musculus with 44 samples.

Results

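Mfap2 and 9 other genes of microfibrils and elastic fibres were followed through 44 RNA-seq libraries of lineage-traced mouse embryos. The genes are Mfap2, Mfap4, Mfap5, Fbn1, Fbn2, Eln, Fbln1, Fbln2, Emilin1 and Ltbp1, 10 of the 32287 gene identifiers in the deposited tables, and each was found by its symbol. Mfap2 was chosen because its level was lower in extraembryonic than in embryonic gut cells at E9.5. The other 9 were chosen by name, as its partners in the matrix, so the E9.5 difference between origins is described below and not tested.

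In every embryo an mCherry+ morula (CD1/G4) had been aggregated with GFP+ embryonic stem cells (G4), so that GFP marks the embryonic lineage and mCherry the extraembryonic lineage. At E6.5, single embryos were separated by hand into epiblast (Epi), distal extraembryonic endoderm (exEndo1) and proximal extraembryonic endoderm (exEndo2), with n = 4 each. At E9.5, gut cells were sorted as EPCAM+ mCherry+ (exMidgut, exHindgut) or as EPCAM+ dual low cells (emMidgut, emHindgut). Per the paper, the dual low cells were GFP+ with a low mCherry signal. Yolk sac endoderm (YsEndo) was sorted as EPCAM+ mCherry+. Each group of E9.5 had n = 4, with 4 embryos pooled per library. At E13.5, EPCAM+ GFP+ wild-type cells (emSI, emColon) and EPCAM+ mCherry+ Trp53 knockout cells (exSI, exColon) were sorted from small intestine and colon of single embryos, with n = 3 each. Origin and strain background therefore changed together in every comparison of origins, and at E13.5 the Trp53 genotype changed with them, so that their parts cannot be told apart. Sex could differ with origin too, since the paper states that GFP+ cells are male and mCherry+ cells of either sex. It also describes the dual cells of E9.5 as embryonic cells that hold remnants of extraembryonic ones. The libraries of E6.5 and E9.5 are labelled wild type. All embryonic cells descend from cultured stem cells and not from a natural epiblast.

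Microfibrils are thin filaments of the extracellular matrix whose backbone is made of fibrillins. MFAP2 is a small glycoprotein that binds fibrillin and coats the filament, and MFAP5 is its closest relative. In elastic tissues the filaments carry elastin, which fibulins and EMILIN1 help to attach, and in many tissues they hold latent TGFβ through LTBP1. Such matrix is best known from mesenchyme, smooth muscle and vessel walls rather than from gut epithelium.

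The deposited values used were TPM, in which reads are scaled by transcript length and by the total of the library, so that levels can be compared between genes. The aligned sequence behind a library was 3.528 to 12.04 Gb (median 6.796), and 10382 to 13596 genes were above 1 TPM in a library. The labels were checked against reporters and markers. The embryonic gut libraries held EGFP at 440 to 880 TPM, and mCherry was at or below 6.61 TPM in them. The extraembryonic gut libraries held mCherry at 2620 to 8670 TPM, with EGFP at or below 5.67 TPM. Epcam averaged 376 to 1380 TPM in the 8 embryonic and extraembryonic gut groups. Trp53 itself was at 33.4, 167 and 117 TPM in exSI and 42.5, 124 and 122 TPM in exColon, against 158 to 201 TPM in emSI and 151 to 245 TPM in emColon. The exColon libraries lay below all emColon libraries, while exSI and emSI overlapped. A level over the whole gene does not show the edited site, so it is no direct check of the knockout label. At E13.5, emSI replicates 1 and 2 stood apart, with 12 mesenchyme markers summing to 678 and 172 TPM against 1.93 TPM in emSI replicate 3. The other 9 libraries of that stage were at 0.0204 to 13 TPM, and the tests that rest on emSI were repeated without these 2 libraries.

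Mfap2 lies on mouse chromosome 4 of mm10 at chr4:141010418-141015984, on the plus strand. The sequence before its first annotated exon is shown because Mfap2 is the gene the results turn on. It comes from the RefSeq promoter table (GRCm38.p6, the assembly of mm10), spans chr4:141010174-141010417 (244 bases, plus strand), and has its 5 CG dinucleotides in capitals.
Mfap2 upstream: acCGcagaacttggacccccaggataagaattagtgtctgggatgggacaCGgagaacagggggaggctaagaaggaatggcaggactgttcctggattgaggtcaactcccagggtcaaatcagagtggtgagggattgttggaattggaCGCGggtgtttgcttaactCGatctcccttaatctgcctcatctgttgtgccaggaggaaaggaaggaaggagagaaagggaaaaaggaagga
The table lists 2 start sites for Mfap2. The 300-base window around this upstream start holds 6 CG on its plus strand, and that around the downstream start holds 22, against a median of 7 over 32851 windows. In all, 6 of the 10 genes had a window in that table. The letters TATAAA (either strand) were in no window of these genes and in 13.6% of all windows. The letters GGGCGG (either strand) were in the downstream windows of Mfap2 and Fbln1, in the windows of Fbn1 and Fbln2, and in 35.7% of all windows.

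Mfap2 was abundant in every embryonic gut library of E9.5 and low in every extraembryonic one of that stage. At E9.5 the 4 emMidgut libraries held 431, 481, 452 and 493 TPM, and the 4 emHindgut libraries 226, 212, 290 and 237 TPM. The exMidgut libraries held 7, 19.2, 1.66 and 1.25 TPM, and the exHindgut libraries 11.6, 2.59, 2.68 and 0 TPM. The groups were far apart, since the highest extraembryonic library was at 19.2 TPM and the lowest embryonic one at 212 TPM. The mean was 5.74 ± 6.61 TPM (SD, n = 8) in extraembryonic gut and 353 ± 123 TPM (SD, n = 8) in embryonic gut, so that the former was 1.63% of the latter. On the log2(TPM + 1) scale the difference of the means was -6.22. EGFP in the 8 extraembryonic libraries was at 0 to 2.38 TPM and was 0 in exMidgut replicate 2, which held the highest Mfap2 level among them. The 4 YsEndo libraries were listed at 0. Of 5 markers of smooth muscle and mesothelium, the sum was 66.3 to 105 TPM in emMidgut against 25.6 to 41.3 TPM in exMidgut, and 37.1 to 53.1 TPM in emHindgut against 21.4 to 42.6 TPM in exHindgut, with Acta2 and Tagln the most abundant and Myh11 listed at 0 in 3 of the 4 libraries of each group. Other marker lists differed too. Germ cell markers had medians of 106 TPM in emMidgut and 3.87 TPM in exMidgut, and epiblast markers 68.7 and 0.0907 TPM, with overlapping ranges. Neural markers had medians of 12.1 and 2.35 TPM. Yolk sac endoderm (2510 and 12400 TPM) and surface ectoderm markers (1.03 and 3.24 TPM) were higher in exMidgut. Mesenchyme markers summed to 56.8 to 86.1 TPM in emHindgut against 27 to 38.3 TPM in exHindgut. The part of any of these cells in the Mfap2 level was not tested.

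**Figure D1:**
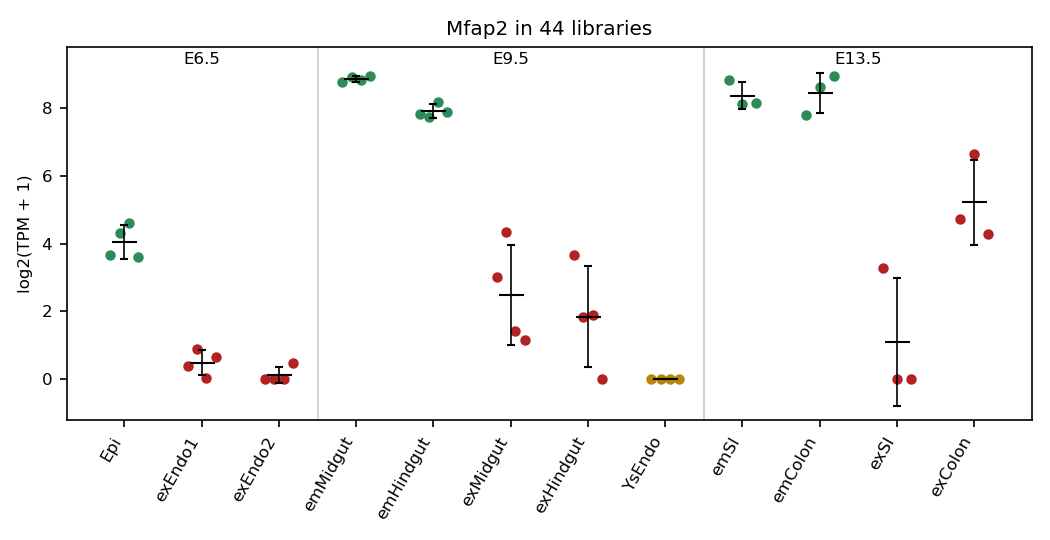
Mfap2 level on a log2(TPM + 1) axis in each of the 44 libraries (points) of the 12 groups, with the group mean and SD (black). Green marks cells of embryonic origin, red extraembryonic cells and dark yellow yolk sac endoderm. Every embryonic gut library, at 212 TPM or more, lies above every extraembryonic library, of which exColon replicate 2 is the highest at 98.2 TPM.

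Over both regions at E9.5, Mfap2 was the only 1 of the 10 genes whose extraembryonic and embryonic libraries did not overlap, as was the case for 1.41% of the 13473 genes tested. Because the choice of Mfap2 used this contrast, nothing is read from that count. Within the midgut, the groups of Mfap2 and Ltbp1 did not overlap (2 of 10, background 10.3%). Within the hindgut, those of Mfap2 and Mfap4 did not (2 of 10, background 11.9%). In each of these cases the extraembryonic libraries were the lower ones.

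Mfap2 also differed between lineages at E6.5. Epi held 11.5, 19, 23.6 and 11.2 TPM. The exEndo1 libraries held 0.297, 0.835, 0.0318 and 0.565 TPM, and exEndo2 was listed at 0 in 3 libraries and at 0.398 TPM in replicate 4. No library of either endoderm reached 1 TPM, and no Epi library was below 11.2 TPM. With limma, Mfap2 was lower in exEndo1 than in Epi by 3.56 on the log2(TPM + 1) scale (log2 fold change -3.56, SE 0.251, adjusted p = 1.61e-08). In exEndo2 the log2 fold change was -3.93 (SE 0.251, adjusted p = 5.08e-09). All fold changes below are on this scale, which understates the change of genes with low TPM. The comparisons with Epi share its 4 libraries. Mfap2 passed the filter on low values (above 1 TPM in at least 4 libraries) through the Epi libraries alone. These p-values are therefore no support by themselves.

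At E13.5 Mfap2 was again lower in extraembryonic cells. The 3 emSI libraries held 455, 277 and 281 TPM, and the 3 emColon libraries 220, 392 and 487 TPM. Of the exSI libraries, replicate 1 held 8.67 TPM and the other 2 were listed at 0. The exColon libraries held 25.5, 98.2 and 18.5 TPM. Each extraembryonic library was below each embryonic library of its stage, and 1.16% of the genes tested had groups that did not overlap. Over both organs, with organ as a covariate, the log2 fold change was -5.25 (SE 0.71, limma, adjusted p = 5.07e-04). Mfap2 was the 1 gene called among the 7 of the 10 tested (called here means an adjusted p under 0.05 with a log2 fold change beyond 1 in size), against 0.625% of 12483 genes tested.

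The E13.5 difference was called by itself in the small intestine only. There the log2 fold change of exSI against emSI was -7.27 (SE 0.754, limma, adjusted p = 7.48e-05). In the colon, exColon against emColon gave -3.23 (SE 0.754, limma, adjusted p = 0.0707, 95% interval -4.83 to -1.63). Without exColon replicate 2, at 98.2 TPM, the colon difference was -3.94 with an adjusted p of 0.037 by limma. That library held no EGFP, as did the other 2 exColon libraries. The difference between the organs was 4.04 (SE 1.07, limma interaction, adjusted p = 0.323) and was not called, although it was called without exSI replicate 1. Without emSI replicates 1 and 2 it was 3.82 (limma interaction, adjusted p = 0.991). Among extraembryonic cells alone, Mfap2 was higher in exColon than in exSI by 4.12 (SE 0.754, limma, adjusted p = 0.0156), 1 gene called of 7 tested against 0.857% of all genes. That call was lost without exColon replicate 2 (adjusted p = 0.0902), exSI replicate 2 (0.0923) or exSI replicate 3 (0.061).

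Beside the mesenchyme markers, the emSI libraries at 678, 172 and 1.93 TPM of summed markers held 455, 277 and 281 TPM of Mfap2. The library with the highest sum was thus also the highest in Mfap2, and the other 2 were alike in Mfap2. The part of these cells in the Mfap2 level was not tested. In emColon the 12 markers summed to 6.49 to 13 TPM, with 5 of the 12 listed at 0 in all 3 libraries, and Mfap2 was at 220 to 487 TPM. Smooth muscle and mesothelium markers summed to 0, 9.91 and 85.2 TPM in emColon replicates 1, 2 and 3. Mfap2 rose in the same order, at 220, 392 and 487 TPM, and the part of such cells in the emColon level was not tested. Without emSI replicates 1 and 2, an alternative chosen after seeing the data, the difference over both organs was -4.5 (limma, adjusted p = 0.0157). In the small intestine alone, with 1 emSI library left that is assumed to vary like the other groups, it was -7.05 (limma, adjusted p = 0.056).

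Ordered by mean TPM, the levels of Mfap2 ran from emMidgut (464 ± 28.1, SD, n = 4) through emColon (366 ± 135.5, n = 3), emSI (337 ± 102, n = 3) and emHindgut (241 ± 33.8, n = 4) to exColon (47.4 ± 44.1, n = 3). Epi followed at 16.3 ± 6.03, exMidgut at 7.27 ± 8.37, exHindgut at 4.21 ± 5.06, exSI at 2.89 ± 5.01, exEndo1 at 0.432 ± 0.346 and exEndo2 at 0.0995 ± 0.199, with YsEndo last. The only neighbours in this order whose ranges were apart were emHindgut and exColon. The position of Epi is of interest for the scale: the embryonic lineage held more Mfap2 in each gut group than in the epiblast at E6.5, and the lowest embryonic gut library (212 TPM) was above the highest Epi library (23.6 TPM). Within an origin at E9.5, emHindgut against emMidgut gave -0.95 (SE 0.588, limma, adjusted p = 0.285, 95% interval -2.17 to 0.276). The emMidgut libraries, at 431 to 493 TPM, nevertheless all lay above the emHindgut libraries, at 212 to 290 TPM. The fit shares its spread estimate with exMidgut and exHindgut, whose log2 SDs were 1.48 and 1.49. Those of emMidgut and emHindgut were 0.088 and 0.193. The missing call therefore does not show equal levels in the embryonic regions.

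MFAP4 is a glycoprotein with a fibrinogen-like domain that binds fibrillin and elastin. Its transcript followed the region of the gut at E9.5 in both origins. The emHindgut libraries held 51.6, 41.9, 43 and 55.4 TPM, and the exHindgut libraries 13.7, 14.1, 19.5 and 14 TPM. In the midgut, emMidgut replicate 4 held 3.23 TPM and the other 7 libraries were at or below 0.0663 TPM. Hindgut libraries were thus above all midgut libraries in both origins. The log2 fold change of hindgut against midgut was 5.07 in embryonic cells (SE 0.405, limma, adjusted p = 1.58e-08) and 3.99 in extraembryonic cells (SE 0.405, limma, adjusted p = 3.99e-07). Mfap4 passed the filter on low values through the hindgut libraries, so these p-values are no support by themselves. Within the hindgut, exHindgut averaged 15.3 ± 2.79 TPM and emHindgut 48 ± 6.6 TPM (SD, n = 4 each), so that the level in extraembryonic cells was 32% of that in embryonic cells.

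Fbln2, which encodes a fibulin of basement membranes and elastic fibres, showed the same regional order. The emHindgut libraries held 20.6, 11.7, 17.4 and 17.5 TPM and the exHindgut libraries 18.5, 15.1, 15.4 and 11.8 TPM. The emMidgut libraries held 3.6, 5, 0 and 0 TPM, and exMidgut was listed at 0 apart from 0.654 TPM in replicate 3. Both hindgut groups covered the same range and lay above both midgut groups. The log2 fold change was 2.93 in embryonic cells (SE 0.496, limma, adjusted p = 1.79e-04) and 3.82 in extraembryonic cells (SE 0.496, limma, adjusted p = 9.49e-06). Like Mfap4, Fbln2 passed the filter on low values through the hindgut libraries, and the same limit holds for its p-values.

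Ltbp1, which encodes the protein that tethers latent TGFβ to microfibrils, was highest in emMidgut. Its libraries there held 32.5, 32.5, 36.7 and 43.9 TPM, those of emHindgut 17.6, 15.2, 16.1 and 11.4 TPM, those of exMidgut 20.2, 16.9, 25.2 and 16.9 TPM, and those of exHindgut 16.1, 21.4, 13.8 and 10.8 TPM. The emMidgut libraries lay above all others, while the other 3 groups overlapped. Smooth muscle and mesothelium markers were also highest in emMidgut (66.3 to 105 TPM against 21.4 to 53.1 TPM in the other 3 groups), as were 4 germ cell markers in median (106 TPM, range 4.04 to 253 TPM, against at most 7.71 TPM), and their part in the Ltbp1 level was not tested. Ltbp1 fell by 1.22 from emMidgut to emHindgut on the log2 scale (log2 fold change -1.22, SE 0.238, limma, adjusted p = 7.42e-04). Between exMidgut and exHindgut it differed by -0.35 (SE 0.238, limma, adjusted p = 0.336, 95% interval -0.845 to 0.145). The difference between these regional differences was 0.87 (SE 0.336, limma interaction, adjusted p = 0.489) and was not called.

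Fbln1, another fibulin, was the most abundant of the 10 genes in most groups and was above 1 TPM in all 44 libraries (24.6 to 389 TPM). At E9.5 the exMidgut libraries held 259, 342, 389 and 245 TPM and the exHindgut libraries 131, 138, 166 and 134 TPM, a log2 fold change of -1.1 (SE 0.147, limma, adjusted p = 1.36e-05). Without exMidgut replicate 3 the fold change was -0.98, short of the threshold of 1, with an adjusted p of 8.05e-05 by limma. In embryonic cells emMidgut held 200, 228, 271 and 212 TPM and emHindgut 191, 164, 158 and 137 TPM, a log2 fold change of -0.49 (SE 0.147, limma, adjusted p = 0.0215) that did not reach the threshold. The midgut was the higher region in both origins.

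In all, 4 of the 9 genes tested were called between emHindgut and emMidgut (background 12.8% of 13473 genes) and 3 of 9 between exHindgut and exMidgut (background 12.2%). Mfap4 and Fbln2 passed the filter on low values through the hindgut libraries, so that these counts are no support by themselves. The median log2 fold change of the 9 was 0.62 and -0.35, against -0.02 and 0 over all genes tested. The fourth embryonic call was Emilin1, whose protein sits between elastin and microfibrils. It held 3.23, 6.85, 4.33 and 5.57 TPM in emHindgut against 0, 1.85, 2.35 and 0 TPM in emMidgut (log2 fold change 1.73, SE 0.601, limma, adjusted p = 0.0445). That call was lost without any 1 of the 4 emHindgut libraries or without emMidgut replicate 1 or 4, with adjusted p from 0.0538 to 0.13. No gene was called for the interaction of origin and region by limma (0 of 9, background 0.0965%), and 3 had an unadjusted p under 0.05. The summed mesenchyme markers were also higher in the hindgut, at 56.8 to 86.1 TPM in emHindgut and 27 to 38.3 TPM in exHindgut against 11.7 to 23.1 TPM in emMidgut and 6.29 to 21.7 TPM in exMidgut. None of the 12 averaged more than 13.8 TPM in a hindgut group, and their part in the hindgut levels of Mfap4, Fbln2 and Emilin1 was not tested. In bulk libraries, fewer cells of a type and less RNA per cell cannot be told apart.

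**Figure D2:**
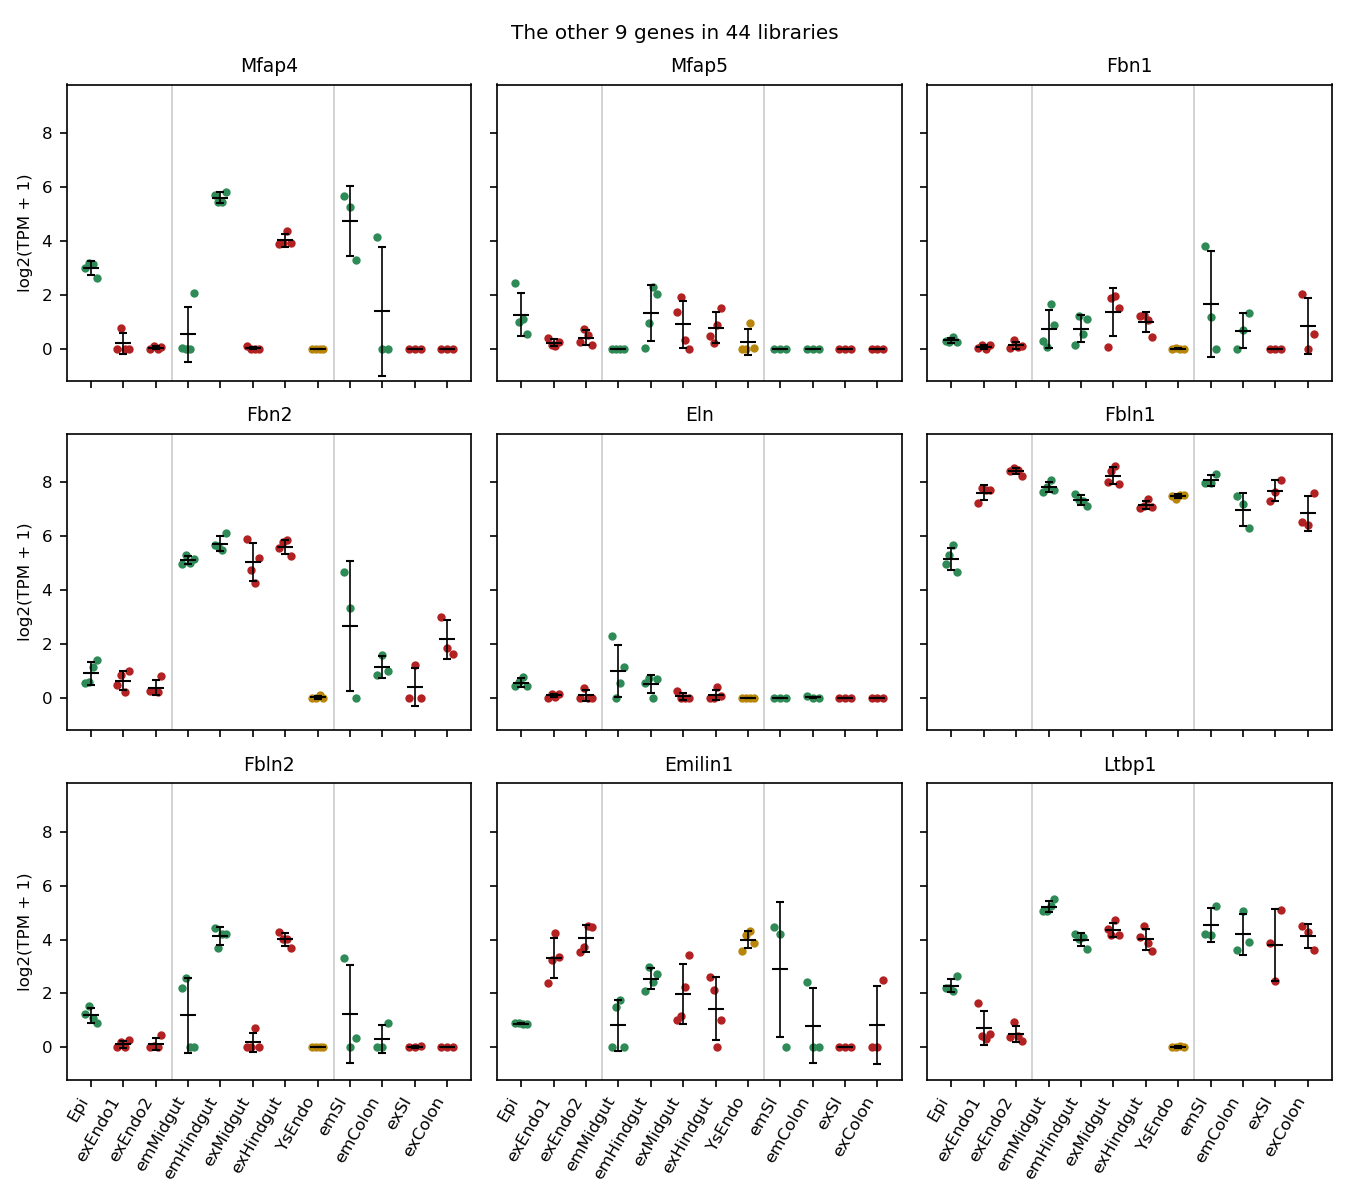
Levels of the 9 genes other than Mfap2 on a log2(TPM + 1) axis, with points for the libraries, group mean and SD in black, and vertical lines between E6.5, E9.5 and E13.5. Mfap4 and Fbln2 stand out in both hindgut groups, Fbn2 in all 4 gut groups at E9.5, Ltbp1 in the gut groups of both stages, and Fbln1 is high in all groups but Epi.

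The fibrillins form the backbone of the filament, and of the pair only Fbn2, the fibrillin best known from embryonic tissue, was well expressed. At E9.5 it held 30.1, 38.5, 31.5 and 34.7 TPM in emMidgut and 50.4, 48.7, 43.8 and 68 TPM in emHindgut. The exMidgut libraries held 59.3, 25.6, 18.3 and 36 TPM, and the exHindgut libraries 45.8, 54.4, 56.7 and 37.8 TPM. Groups of both origins overlapped in each region, and the extraembryonic mean was 96.6% of the embryonic mean over the 8 libraries each. Fbn2 did not exceed 1.67 TPM in any E6.5 library or 0.0725 TPM in YsEndo. At E13.5 it held 24.5, 9.24 and 0 TPM in emSI, in the order of the mesenchyme sums, 0.792, 2.04 and 1.01 TPM in emColon, 0, 1.34 and 0 TPM in exSI, and 7.08, 2.64 and 2.14 TPM in exColon. Fbn1 exceeded 1 TPM in 13 of the 44 libraries and was highest in emSI replicate 1, at 13 TPM.

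Mfap5 and Eln, the relative of Mfap2 and the gene for elastin, were close to absent. Mfap5 was above 1 TPM in 7 libraries, with a highest value of 4.37 TPM in Epi replicate 1, and was listed at 0 in all 12 libraries of E13.5. Eln was above 1 TPM in 2 libraries and reached 3.87 TPM. Mfap5 was tested at E9.5 and was not called between regions in either origin (limma, adjusted p = 0.0699 in embryonic and 0.901 in extraembryonic cells). Eln did not pass the filter on low values in any comparison.

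At E6.5 the 5 genes that passed the filter on low values (above 1 TPM in at least 4 libraries) were each called in both comparisons with Epi, where 33.1% of the 12430 genes tested were called for exEndo1 and 35.3% for exEndo2. Nothing is read from that count, since Mfap2 and Mfap4 were above 1 TPM in Epi alone, Emilin1 in the endoderm alone, and Ltbp1 in Epi and 1 exEndo1 library, so that passing the filter already required a difference. The p-values of Mfap2, Mfap4, Ltbp1 and Emilin1 against Epi are for that reason no support by themselves. Fbln1 passed in every group. Mfap2, Mfap4 and Ltbp1 were lower in the extraembryonic endoderm, and Fbln1 and Emilin1 higher. Median-ratio rescaling moved the median of all genes from 0.11 to -0.05 for exEndo1, and the 5 directions held under it. Mfap4 held 6.95, 8.1, 7.91 and 5.12 TPM in Epi, while both endoderm groups were at or below 0.719 TPM (log2 fold change for exEndo1 -2.79, SE 0.201, limma, adjusted p = 1.99e-08). Ltbp1 held 3.55, 3.62, 3.25 and 5.19 TPM in Epi and 0.191 to 2.12 TPM in the endoderm groups (-1.56, SE 0.27, limma, adjusted p = 1.46e-04).

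Fbln1 and Emilin1 went the other way, and both were higher again in proximal than in distal endoderm by an amount short of a call. Fbln1 held 30.5, 38.6, 49.5 and 24.6 TPM in Epi, 149, 223, 211 and 209 TPM in exEndo1, and 341, 365, 348 and 302 TPM in exEndo2. Its 3 groups did not overlap. The log2 fold change was 2.47 for exEndo1 (SE 0.184, limma, adjusted p = 3e-08), 3.25 for exEndo2 (SE 0.184, limma, adjusted p = 1.42e-09), and -0.79 for exEndo1 against exEndo2 (SE 0.184, limma, adjusted p = 0.0104). Emilin1 held 0.886, 0.853, 0.826 and 0.808 TPM in Epi, 4.3, 8.43, 17.8 and 9.14 TPM in exEndo1, and 10.6, 12.1, 21.6 and 20.8 TPM in exEndo2. It was higher than in Epi by 2.42 in exEndo1 (SE 0.318, limma, adjusted p = 1.07e-05) and by 3.17 in exEndo2 (SE 0.318, limma, adjusted p = 6.03e-07). Emilin1 passed the filter through the endoderm libraries alone, so these 2 p-values are no support by themselves. Between exEndo1 and exEndo2, limma called 0 of the 5 genes (background 6.32%), with 2 at an unadjusted p under 0.05, and Emilin1 was called once exEndo1 replicate 3 was left out. Among the mesenchyme markers Pdgfra, which primitive endoderm derivatives also express, averaged 59.7 TPM in exEndo2 and 7.45 TPM in exEndo1.

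The yolk sac endoderm at E9.5 kept Fbln1 and Emilin1 and no other gene of the 10 above 1 TPM. Fbln1 held 179, 167, 186 and 182 TPM and Emilin1 11.1, 16.9, 19 and 13.7 TPM. Against exEndo2, from which YsEndo differs in stage and in isolation by sorting rather than by hand, Fbln1 differed by -0.92 (SE 0.0931, limma, adjusted p = 3.58e-06) and Emilin1 by -0.06 (SE 0.242, limma, adjusted p = 0.845, 95% interval -0.579 to 0.465). Neither passed the threshold on the fold change, so 0 of 2 were called (limma, 29.6% of 11205 genes, 1 of 2 at an unadjusted p under 0.05). The median of all genes was -0.41 in this comparison and 0.01 after median-ratio rescaling. Of the calls over all genes, 891 of 3315 were higher in YsEndo, and 1497 of 2632 after rescaling.

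Mfap4 at E13.5 was highest in the emSI libraries with the highest mesenchyme sums. It held 50.3, 37.1 and 8.69 TPM in emSI, where these markers summed to 678, 172 and 1.93 TPM, and was listed at 0 in all 3 exSI libraries. In the colon, emColon replicate 1 held 16.6 TPM, and the other 2 emColon and all 3 exColon libraries were listed at 0. The exSI and emSI libraries did not overlap, and the log2 fold change was -4.74 (SE 0.999, limma, adjusted p = 0.0468). Since exSI is at 0, this size depends on the pseudocount, and Mfap4 passed the filter on low values through embryonic libraries alone. The call was lost without emSI replicate 1 or 2 (adjusted p = 0.249 and 0.201), without exSI replicate 1, 2 or 3 (0.163, 0.187 and 0.148), and without both emSI replicates 1 and 2 (1). With Mfap2, 2 of the 7 genes tested were called in the small intestine (background 0.505%), and limma called 0 of 7 in the colon (background 0.617%, 1 of 7 at an unadjusted p under 0.05). The median of all genes in the colon moved from 0.22 to 0.05 with median-ratio rescaling, and of the calls over all genes 62 of 77 were higher in exColon before and 46 of 67 after it.

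**Figure D3:**
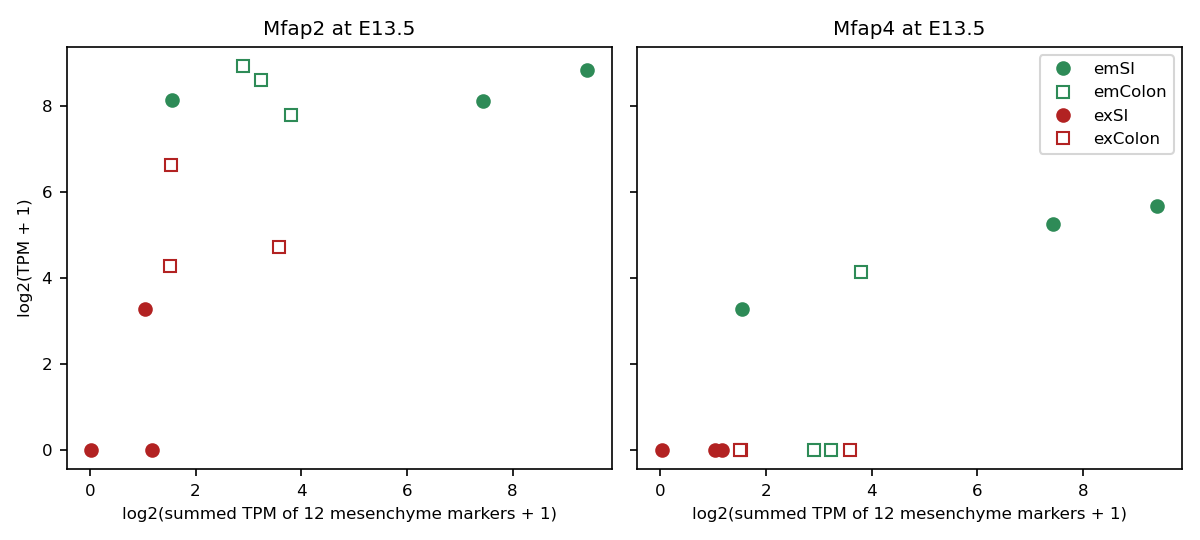
Mfap2 (left) and Mfap4 (right) in the 12 libraries of E13.5 on a log2(TPM + 1) axis against the summed TPM of 12 mesenchyme markers on a log2 axis. Circles are small intestine and squares colon, green embryonic and red extraembryonic. The emSI library with 1.93 TPM of markers holds 281 TPM of Mfap2, and the 2 emSI libraries with 678 and 172 TPM hold the most Mfap4, at 50.3 and 37.1 TPM.

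The other genes at E13.5 showed no called difference between origins, which does not show equal levels. In simulated data, the fit of exColon against emColon recovered 20% of log2 changes of 1.5 and 74% of changes of 3. Emilin1 held 21.1, 17.5 and 0 TPM in emSI, highest where the mesenchyme markers were highest, and was listed at 0 in all exSI libraries (-2.89, SE 1.11, limma, adjusted p = 0.53, 95% interval -5.24 to -0.54). Fbn2 differed by -2.27 in exSI against emSI (SE 0.986, limma, adjusted p = 0.631, 95% interval -4.36 to -0.172). These intervals are not adjusted for the number of genes tested. Without emSI replicates 1 and 2 the differences of exSI against emSI were 0 for Emilin1, 0 for Fbn1, 0.41 for Fbn2, -0.61 for Fbln1 and -1.46 for Ltbp1 (limma, adjusted p = 1 each), and the sign of Fbn2 turned. Smooth muscle and mesothelium markers summed to 476, 14.1 and 0.0871 TPM in the same emSI libraries. The part of these cells in the Mfap4, Emilin1, Fbn1 and Fbn2 levels of emSI was not tested. Fbln1 held 248, 248 and 314 TPM in emSI and 159, 200 and 272 TPM in exSI, and 177, 146 and 77.8 TPM in emColon against 92.3, 83.8 and 191 TPM in exColon. Ltbp1 held 17.7, 16.8 and 37.3 TPM in emSI, 13.6, 4.45 and 32.9 TPM in exSI, 11.2, 32.3 and 13.9 TPM in emColon, and 21.7, 18.3 and 11.3 TPM in exColon. Both genes overlapped between origins in each organ. Over both organs the log2 fold change was -0.27 for Fbln1 (95% interval -0.781 to 0.249) and -0.4 for Ltbp1 (95% interval -1.4 to 0.597). Between emColon and emSI limma called 0 of 7 (background 0.729%, 2 of 7 at an unadjusted p under 0.05), and Mfap4 was called without emColon replicate 1. Without emSI replicates 1 and 2 no gene of the 7 was called between emColon and emSI, with Mfap4 at -1.9 (limma, adjusted p = 0.994). For the interaction of origin and organ limma called 0 of 7 (background 0.016%, 3 of 7 at an unadjusted p under 0.05).

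**Figure D4:**
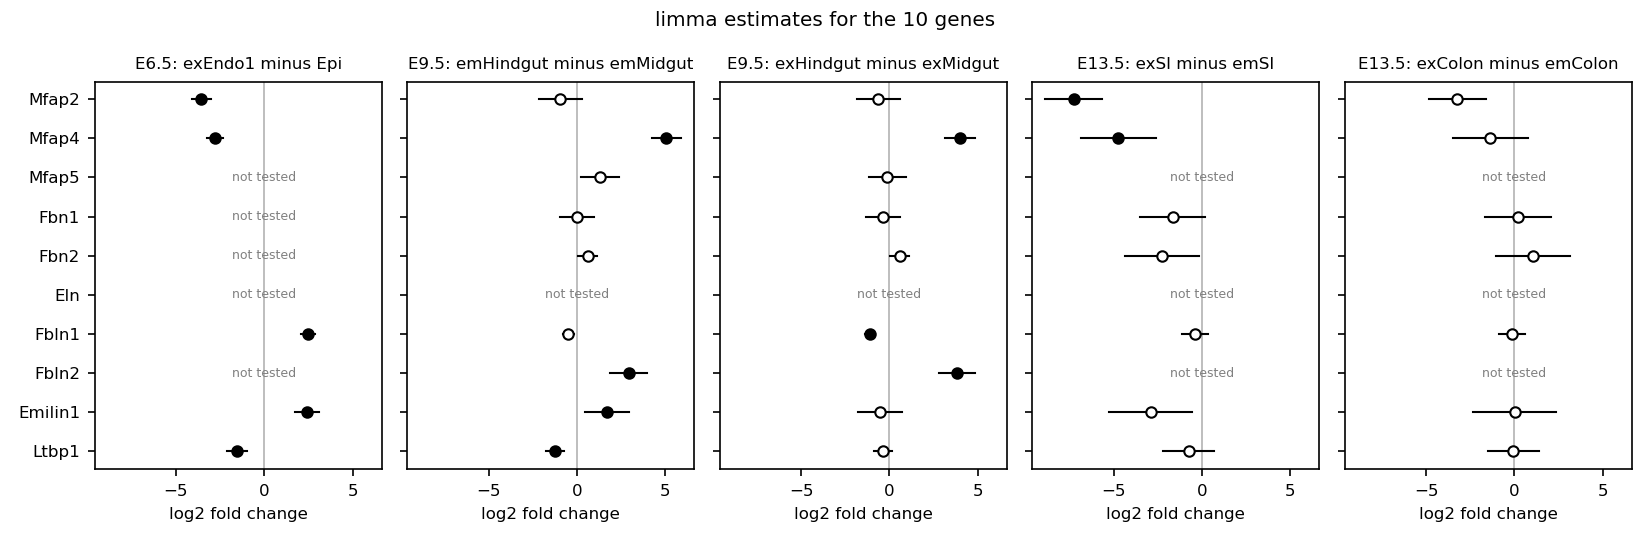
Log2 fold changes of the 10 genes from limma on log2(TPM + 1), with 95% intervals (lines), in 5 comparisons. Filled circles were called and open circles were not. Mfap2 is called in exEndo1 against Epi (-3.56) and exSI against emSI (-7.27), and Mfap4 also in both hindgut to midgut comparisons (5.07 and 3.99).

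A further 36 genes were those of elastic fibre assembly, cross-linking and microfibril binding, with some that only share the Mfap name (Mfap1a, Mfap1b, Mfap3 and Mfap3l). Of these 36, none had separate groups between extraembryonic and embryonic gut over both regions at E9.5. In the midgut 2 were higher (Dcn, Efemp2) and 2 lower (Vcan, Hspg2) in every extraembryonic library. In the hindgut 3 were higher (Adamts10, Adamtsl4, Mfap3l) and 3 lower (Emilin2, Adamtsl2, Vcan). Over all genes 10.3% had separate groups in the midgut and 11.9% in the hindgut. Dcn (decorin, a collagen-binding proteoglycan) averaged 11.2 ± 3.21 TPM in exMidgut and 2.26 ± 2.26 TPM in emMidgut, and Vcan (versican, a large proteoglycan that binds fibrillin) 210 ± 38.8 and 271 ± 12.3 TPM (SD, n = 4 each). At E6.5, 14 of the 36 were tested in exEndo1 against Epi, of which 3 were called higher and 4 lower, against 33.1% of all genes called, and with a median log2 fold change of 0.05 against 0.11 over all genes. The lysyl oxidase family gene Loxl2, whose product cross-links matrix, was higher by 2.74 (SE 0.219, limma, adjusted p = 6.06e-08) and Furin, a convertase of secreted precursors, by 1.93 (SE 0.252, limma, adjusted p = 1.02e-05). Ltbp4, a relative of Ltbp1, was lower (-1.8, SE 0.219, limma, adjusted p = 5.06e-06).

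Between regions at E9.5, 29 of the 36 were tested, with 4 called higher and 2 lower in emHindgut than in emMidgut, and 3 and 3 in exHindgut than in exMidgut, against 12.8% and 12.2% of all genes called. Adamtsl2, which encodes a secreted protein that binds LTBP1 and fibrillin, was higher in the hindgut by 4.51 in embryonic cells (SE 0.454, limma, adjusted p = 3.58e-07) and by 3.18 in extraembryonic cells (SE 0.454, limma, adjusted p = 2.86e-05). It averaged 0.0076 TPM in emMidgut and 1.03 TPM in exMidgut, against 21.9 TPM in emHindgut and 13.3 TPM in exHindgut. Like Mfap4, Adamtsl2 passed the filter on low values through the hindgut libraries, so its p-values are no support by themselves. Vcan was lower in the hindgut in both origins (-1.34 and -1.41, SE 0.157 each, limma, adjusted p = 2.42e-06 and 1.32e-06), as was Loxl2 (-1.24 and -1.96, SE 0.276 each, limma, adjusted p = 0.00239 and 2.5e-05). Adamts17, of the same secreted family, was higher in the hindgut by 2.26 and 2.2 (SE 0.524 each, limma, adjusted p = 0.00352 and 0.00446). Emilin2 (1.89) and Tgfb3 (1.8) were called in embryonic cells, and Dcn (-2.39) and Mfap3l (1.58) in extraembryonic cells. Emilin2 and Tgfb3 averaged 0.426 and 0.072 TPM in emMidgut against 3.95 and 3.04 TPM in emHindgut. The limit given for Adamtsl2 holds for both, and the counts of calls between regions are no support by themselves. None of the 29 was called for the interaction of origin and region by limma (4 at an unadjusted p under 0.05). At E13.5 none of the 17 tested was called between origins by limma over both organs, in the small intestine or in the colon (2, 3 and 1 at an unadjusted p under 0.05), where 0.625%, 0.505% and 0.617% of all genes were called. Among extraembryonic cells Vcan was higher in exColon than in exSI (1.99, SE 0.446, limma, adjusted p = 0.049), 1 of 17 tested against 0.857% of all genes. That call lay just under the threshold, and its dependence on single libraries was not examined.

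The gene whose group means were most like those of Mfap2, by Pearson correlation of log2(TPM + 1) over the 12 groups among 14688 genes, was Scn2b (r = 0.957). Frmd5 (0.922), Fut1 (0.921), Unc5d (0.921) and Tmem246 (0.917) followed. Over the 44 single libraries the correlations of these 5 were 0.738, 0.849, 0.744, 0.805 and 0.72. The 12 points share lineages, stages and sorts, and the values are a description. Scn2b itself stayed low, at 2.35 TPM on average in emMidgut and 0.382 TPM in exMidgut. Among the other members the nearest was Ltbp1 (r = 0.733), and Mfap5 (-0.0755), Fbln1 (-0.133) and Emilin1 (-0.373) had the opposite sign. Between the other members the closest pair was Mfap4 and Fbln2 (r = 0.842 over 12 group means), which share the hindgut levels.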

How the data were processed

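Poly(A) RNA of low-input samples had been sequenced. Per the labels, the authors used cutadapt 4.1 for trimming, STAR 2.7.9a for alignment to mm10 with GFP and mCherry added, and StringTie 2.0.6 for quantifying GENCODE VM23 genes. The deposited values are TPM, FPKM and coverage (a signal) per gene and library, and TPM sums to 1e6 in each. The FPKM values of the authors served as an alternative. Coverage as deposited by the authors gave only the aligned sequence per library. Read counts were not used here, so the precision of a value is known only from the spread between libraries.

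TPM was summed per gene identifier. limma 3.58.1 (lmFit, eBayes with trend, R 4.3.3, two-sided, Benjamini-Hochberg adjustment over all genes tested) was run on log2(TPM + 1) for protein-coding genes outside the Y chromosome that exceeded 1 TPM in 4 or more libraries of the fit (at E13.5, 3 or more). A call needed an adjusted p under 0.05 with a log2 fold change beyond 1 in size, interactions at the adjusted p alone. E6.5 libraries are single embryos, E9.5 libraries pools and E13.5 libraries single embryos, as the labels give them. Replicate numbers paired exEndo1 with exEndo2, whose same-numbered libraries deviated together (correlations 0.146 to 0.38). The scripts were tested on simulated data. All 10 genes are named. Further genes are those of the list of 36 that were called, largest change first, and the 5 most like Mfap2, with those named for separate groups at E9.5 chosen after their values were seen. The 10 genes and all lists were chosen with earlier results of these data known. Alternatives were a pseudocount of 0.1, no filter, median-ratio rescaling, FPKM, no trend, all gene types, no organ covariate, a replicate block, all 44 libraries in a single fit, and leaving out each library.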

Additional observations from a re-analysis of the deposited data

Results flagged for a closer look

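In 4 of 49 groups of 4 libraries examined, the highest or lowest library lay far from the other 3 by Dixon's criterion, which chance meets in about 1 in 20 groups. Mfap4 in emMidgut replicate 4 was at 3.23 TPM with the other 3 at or below 0.03 TPM. Mfap4 in exHindgut replicate 3 was at 19.5 TPM against 13.7 to 14.1 TPM. In exEndo1 replicate 1, Fbln1 was lowest at 149 TPM against 209 to 223 TPM, and Ltbp1 was highest at 2.12 TPM against 0.245 to 0.397 TPM. Groups of 3 were not examined.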

How the results depend on the processing

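None of the called differences changed direction under the alternatives run. Counts of the 10 genes called stayed within 1.5 times the reported count for both comparisons with Epi, both comparisons of hindgut with midgut, the E9.5 interaction and YsEndo against exEndo2. In exSI against emSI the count of 2 became 1 with a pseudocount of 0.1, without the filter and without the trend, 4 with all 44 libraries in a single fit, and 0 without emSI replicates 1 and 2. In exColon against exSI the count of 1 became 0 without the filter and without the trend. With all 44 libraries in a single fit that count was 2, the interaction of origin and organ gave 3, emColon against emSI 2, both organs together 2, and exColon against emColon 1, which FPKM also gave as 1. Leaving out single libraries gave 0 to 1 for exEndo1 against exEndo2, exColon against emColon, emColon against emSI, exColon against exSI and the interaction of origin and organ, and 1 to 2 for exSI against emSI and for both organs together. The cause of these changes was not tested.

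With the replicate number as a block, Emilin1 lost its call between emHindgut and emMidgut (3 in place of 4, adjusted p = 0.0604), and no other call changed. The Emilin1 call was also lost with a pseudocount of 0.1, without the filter, without the trend and in the single fit (adjusted p 0.0552 to 0.0991), with Mfap5 gained in the first and the last. Outside exEndo1 and exEndo2, no pair of groups had every same-numbered correlation over 0.1 (-0.158 to 0.184 in all). At E13.5 the same-numbered emSI and exSI libraries correlated at 0.0486 to 0.0635 and the others at -0.0404 to -0.0103, and same-numbered pairs also lay above the others for exColon with emSI, with emColon and with exSI, a hint from the data and not from the labels. Of the genes most like Mfap2, 2 of 5 were shared with Spearman correlation and 1 with correlation over 44 libraries. A pseudocount of 0.1 moved the E9.5 difference of Eln to -1.99 from -0.66.

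Counts over all genes depended on the fit at E13.5. The single fit called 1594 genes in place of 91 for emColon against emSI, 1989 in place of 77 for exColon against emColon, 1443 in place of 107 for exColon against exSI, 865 in place of 63 for exSI against emSI, 1207 in place of 78 over both organs and 1409 in place of 2 for the interaction. For exEndo1 against exEndo2 it called 463 in place of 785, and for the E9.5 interaction 47 in place of 13. Without emSI replicates 1 and 2, exSI against emSI had 17 genes, emColon against emSI 17 and both organs together 48. Without the filter the calls were 51 in place of 91 (emColon against emSI), 51 in place of 77 (exColon against emColon), 61 in place of 107 (exColon against exSI), 14 in place of 2 (E13.5 interaction) and 8 in place of 13 (E9.5 interaction). With a pseudocount of 0.1 they were 70, 0 and 0 for the last 3 comparisons named, and without the trend 6 and 8 for the interactions, the latter also 8 with the replicate block. Leaving out single libraries took the calls down to 35, 51, 26, 40 and 3 for emColon against emSI, exColon against emColon, exColon against exSI, exSI against emSI and the E9.5 interaction. With 3 libraries a group at E13.5, the standard error of Emilin1 reached 1.11 on the log2 scale.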
